A study of Cricetulus griseus with 6 samples.

Results

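The genes described here are 40 symbols of the actin cytoskeleton and of the transcription factors that read its state, SRF and the YAP/TAZ-TEAD complex, in CHO-T cells transfected with *Xbp1* siRNA. They were chosen by symbol: actins, tropomyosins, myosin chains, crosslinkers, focal adhesion proteins, membrane linkers, *Vim*, and the SRF and YAP regulators and targets. Of the 40, 37 were among the 27873 entries of the expression files and 35 passed a filter at a mean of 0.1 FPKM, a read level scaled to transcript length and library depth, together with 14361 genes in all. The symbols *Tpm3*, *Myl12a* and *Myl12b* were not matched and are not analysed here. *Acta2* and *Cnn1* stayed under the filter.

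CHO-T cells are Chinese hamster (*Cricetulus griseus*) ovary cells, an established line, that stably express mouse T-cadherin (*Cdh13*) from a retroviral vector. Both groups carry this transgene, so neither stands for unmodified CHO cells. Libraries were made 48 h after transfection with negative control siRNA (3 libraries) or *Xbp1* siRNA (3 libraries), and 1 siRNA sequence was used against *Xbp1*. *Xbp1* encodes a transcription factor of the unfolded protein response. The study used its silencing to activate IRE1α, a sensor of unfolded proteins in the endoplasmic reticulum. RNA was then sequenced to look for the pathway through which active IRE1α lowers the release of extracellular vesicles. The labels do not say whether the libraries came from separate cultures, so p-values measure the spread between these libraries, which may be technical.

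Cells assemble actin monomers into filaments that carry tension through myosin, are bundled by crosslinkers, and are anchored to the substrate at focal adhesions. As filaments form, free monomers become scarce, and the cofactors MRTF-A and MRTF-B, which monomers hold back, enter the nucleus and switch on genes bound by SRF, many of which encode cytoskeletal proteins. Tension also keeps YAP and TAZ (the product of *Wwtr1*) in the nucleus, where they act through TEAD factors, while the Hippo kinases LATS1 and LATS2 phosphorylate both and hold them in the cytoplasm.

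*Xbp1* itself, the check of the labels, measured 26.0, 26.2 and 28.4 FPKM in the control libraries and 2.18, 2.11 and 1.39 in the *Xbp1* siRNA libraries, a reduction of 93.0%. The files give no read totals. From the size of 1 read in FPKM, the depth of the libraries lay between 94.0% and 116% of that of the first control library. The columns summed to between 646651 and 666267 FPKM in the controls and between 593487 and 600986 after silencing. Markers of other cell types were low: the summed level of 4 endothelial markers was at most 0.412 FPKM in any library, with *Cdh5* at 0 in all, and the immune markers *Ptprc* and *Cd3e* were at 0 in all 6. The summed level of the epithelial markers was between 1.83 and 2.16 FPKM in controls and between 4.59 and 5.79 after silencing, with *Krt18* and *Krt19* at 0 in all 6. The immune markers together summed to between 5.18 and 6.15 FPKM in controls and between 7.05 and 8.86 after silencing, most of it *Cd68*. The 3 striated muscle markers matched summed to between 1.21 and 1.56 FPKM and to between 3.17 and 4.62, and the 5 smooth muscle markers to between 9.92 and 10.6 FPKM and to between 7.11 and 8.67. Most of the smooth muscle sum was *Smtn*, which went from a mean of 9.36 to 6.21 FPKM. The weaker markers *Myh11* (0.737 to 1.39 FPKM) and *Des* (0.0535 to 0.382 FPKM) went the other way. The part of these differences in the results was not tested. The ovarian markers matched, *Amh*, *Star* and *Fshr*, summed to between 2.99 and 4.76 FPKM over all libraries, with *Fshr* at 0.

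More of these genes were lower than higher after *Xbp1* silencing. At an adjusted p under 0.05, from limma on log2(FPKM + 0.1) with Benjamini-Hochberg adjustment over all 14361 genes, 18 of the 35 were lower (51.4%, against 20.2% of all genes tested) and 5 were higher (14.3%, against 20.2% of all genes tested). The lower genes included both cytoplasmic actins, cofilin, all 3 ERM linkers, 3 of 4 focal adhesion proteins, *Srf*, *Tead1*, *Lats2* and *Wwtr1*. The higher genes were *Tpm1*, *Myl9*, *Myh10*, *Lima1* and *Ankrd1*. The median log2 fold change of the 35 genes was −0.17 and that of all genes tested was 0.01. In bulk RNA, fewer cells that express a gene and less of its RNA per cell cannot be told apart.

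Few of the changes were large. With a change of at least 2-fold required as well, 3 of the 35 genes were called higher (*Tpm1*, *Myl9* and *Ankrd1*), which is 8.57%, against 2.69% of all genes tested, and 1 was called lower (*Wwtr1*), which is 2.86%, against 2.5% of all genes tested. With a change of at least 1.5-fold, 6 were lower, which is 17.1%, against 6.73% of all genes tested, and the same 3 were higher, against 6.95% of all genes tested. The 2 groups of libraries did not overlap for 27 of the 35 genes: 7 were higher in every *Xbp1* siRNA library (20%, against 26.1% of all genes tested) and 20 were lower in every one (57.1%, against 25.8% of all genes tested). The log2 fold changes of the 35 genes ranged from −1.43 to 1.15.

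The members are abundant transcripts, and abundant transcripts in general were more often lower. The 35 genes had a median level of 50.5 FPKM over the 6 libraries, against 10.9 FPKM for all genes tested, and 12 of them reached 100 FPKM in controls. Of those 12, 9 were lower and 3 passed in neither direction (*Pfn1*, *Tagln2* and *Tpm4*), against 48.7% lower among all 1100 genes at that level. Of the 23 members under 100 FPKM in controls, 9 were lower (39.1%, against 17.9% of all genes under that level) and 5 were higher (21.7%, against 20.6%). At a mean of at least 10 FPKM over the 6 libraries, 18 of 32 members were lower (56.2%, against 30.2% of the 7458 genes at that level). In the other direction, 3 were higher (9.38%, against 24.1%). Across the 35 genes, control level and log2 fold change had a Spearman correlation of −0.396, against −0.208 across all 14361 genes. The control values enter both quantities, so noise in them alone pushes such a correlation down. These points come from the same 6 libraries, and genes are not independent replicates. After quantile normalization, which forces the same distribution of values on every library, 17 members were lower (against 18.5% of all genes) and 7 higher, or 20% (against 21.7% of all genes), the median of the members was −0.05 (0.016 for all genes), and the log2 fold changes of *Actn1*, *Tpm4*, *Myl6*, *Flna* and *Pfn1* turned positive. The signs of the other 30 genes stayed the same under that scaling, and all 35 did under median-ratio scaling.

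**Figure D1:**
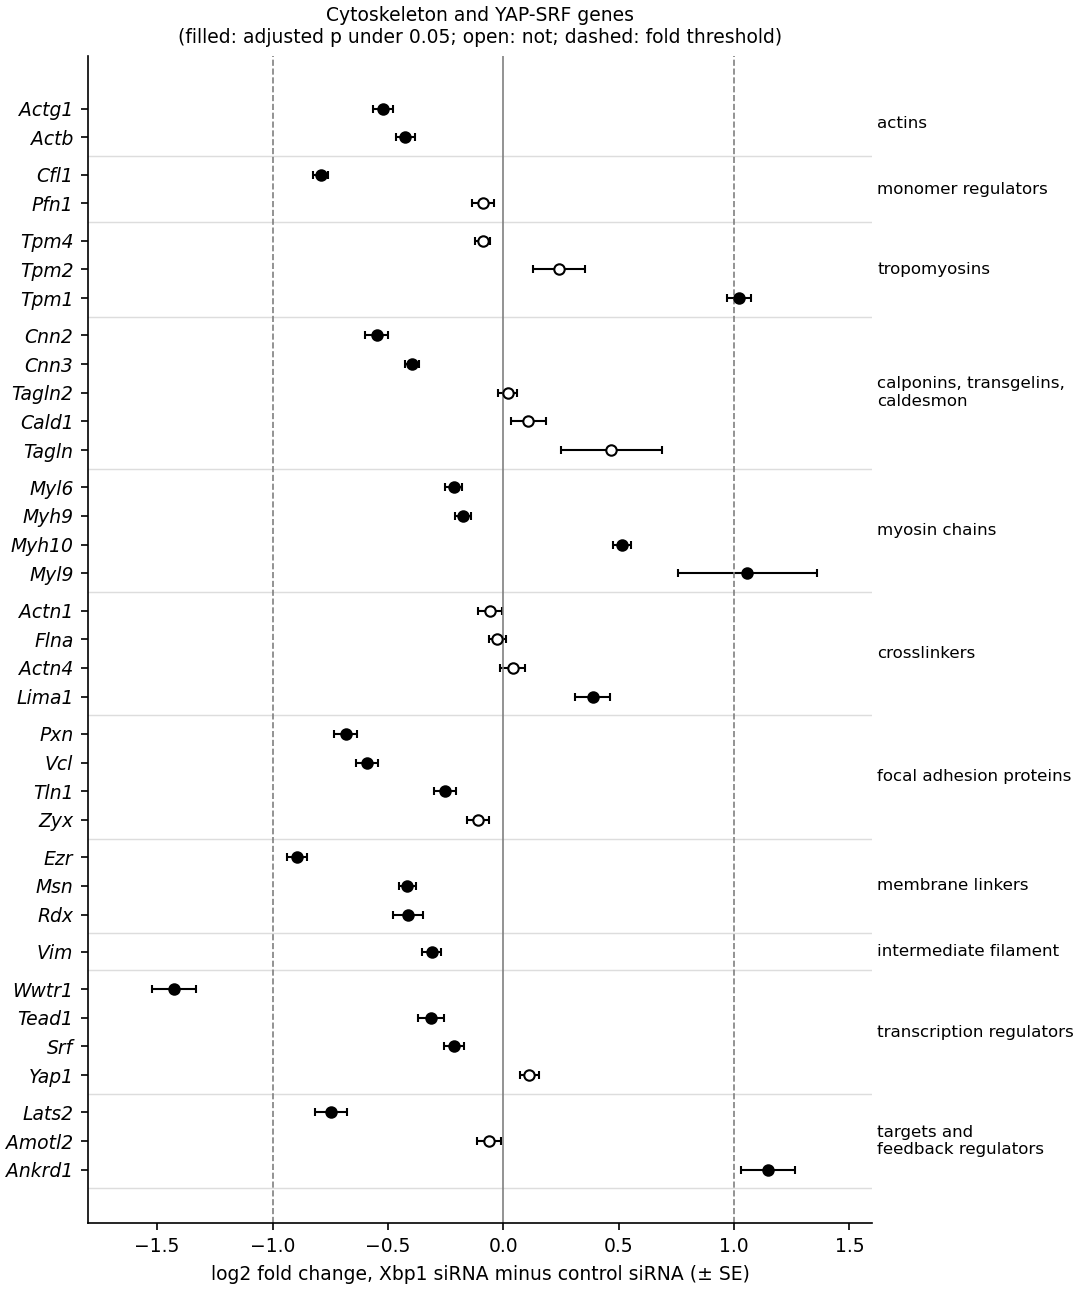
Log2 fold change (*Xbp1* siRNA minus control siRNA, on the log2(FPKM + 0.1) scale) of the 35 tested genes, grouped by role. Points are estimates from 3 libraries against 3, bars are standard errors, filled points have an adjusted p under 0.05 (limma), and the dashed lines mark a 2-fold change. Most filled points lie to the left of 0, and *Tpm1*, *Myl9*, *Myh10*, *Lima1* and *Ankrd1* lie to the right.

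Both cytoplasmic actins, which build the filaments of nonmuscle cells, fell. *Actb*, the gene for β-actin, measured 2712, 2582 and 2507 FPKM in control libraries and 2007, 1916 and 1890 in *Xbp1* siRNA libraries. Its level after silencing was 74.5% of control (2600.2 ± 104 against 1938 ± 61.2 FPKM, SD, n = 3 each), a log2 fold change of −0.42 (SE 0.040, limma adjusted p = 1.67e-04). After quantile normalization it was −0.19 (limma adjusted p = 0.0240). *Actg1*, the gene for γ-actin, measured 263, 257 and 259.9 FPKM in controls and 191, 171 and 182 after silencing, with a log2 fold change of −0.52 (SE 0.043, limma adjusted p = 8.39e-05). Each silenced library was below each control library for both genes, and the 2 transcripts together dropped from 2860 ± 106 to 2119 ± 68.2 FPKM, the few reads of *Acta2* included. β-Actin transcript often serves as a loading control, and here it went from between 0.388% and 0.407% of the summed FPKM in controls to between 0.315% and 0.336%. *Acta2*, smooth muscle α-actin, had 1, 1 and 0 reads in controls and 0, 2 and 3 reads after silencing, at or under a floor of 3 reads in every library, so no fold is given. Reads shared with near-identical actin copies or pseudogenes could move values between entries. How the authors' counting treated them is not given in the sources used here, and their part in these values was not tested.

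Of the proteins that feed and sever filaments, cofilin fell and profilin did not pass the test. *Cfl1*, cofilin-1, which severs filaments and returns monomers, measured 1599, 1599 and 1526 FPKM in controls and 921, 908 and 898 after silencing. The groups were far apart relative to their spread: the level after silencing was 57.7% of control, with a log2 fold change of −0.79 (SE 0.031, limma adjusted p = 3.82e-06), or −0.52 after quantile normalization. *Pfn1*, profilin-1, which loads monomers for growth, measured between 423 and 481 FPKM in controls and between 417 and 426 after silencing, and the groups overlapped (log2 fold change −0.09, limma adjusted p = 0.183). The related severing factors on a separate list differed from each other as well, and both were picked after their values were seen. *Dstn*, destrin, was lower (125 ± 3.91 to 91.4 ± 2.06 FPKM, limma adjusted p = 7.38e-05), and *Cfl2*, the muscle-type cofilin, was at 148 ± 9.11 and 156 ± 3.26 FPKM (limma adjusted p = 0.265).

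Tropomyosins lie along filaments and set which proteins can bind them. *Tpm1* measured 15.7, 17.2 and 16.5 FPKM in controls and 33.1, 33.0 and 34.2 after silencing. Its level rose to 204% of control (16.4 ± 0.762 to 33.5 ± 0.669 FPKM), a log2 fold change of 1.02 (SE 0.051, limma adjusted p = 9.47e-06), just past the 2-fold threshold. It fell short of that threshold with a pseudocount of 1 (0.98) and without control siRNA replicate 1 (0.99). *Tpm4*, the most abundant tropomyosin matched here, went from 402 ± 9.49 to 378 ± 9.68 FPKM (log2 fold change −0.09, limma adjusted p = 0.0680). *Tpm2* went from 14.9 ± 2.35 to 17.5 ± 0.604 FPKM (log2 fold change 0.24, limma adjusted p = 0.131). The groups did not overlap for *Tpm2* and *Tpm4* either, but neither passed the test. The summed level of the 3 genes was 434 ± 11.3 FPKM in controls and 429 ± 8.93 after silencing, with overlapping libraries, so that *Tpm1* made up 3.79% ± 0.102 of the sum in controls and 7.80% ± 0.320 after silencing.

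Calponins, transgelins and caldesmon also bind along filaments. *Cnn2*, calponin-2, measured 282, 267 and 251 FPKM in controls and 189, 177 and 180.3 after silencing (log2 fold change −0.55, SE 0.048, limma adjusted p = 1.21e-04). *Cnn3*, calponin-3, fell from 199 ± 4.94 to 151 ± 1.26 FPKM (log2 fold change −0.40, limma adjusted p = 6.44e-05). No silenced library reached a control library for either gene. *Cnn1*, the smooth muscle calponin, had at most 1 read in any library. *Tagln*, the smooth muscle transgelin and a classic SRF target, measured 5.54, 6.28 and 4.21 FPKM in controls and 9.82, 5.74 and 6.99 after silencing. These groups overlapped, and the difference did not pass the test (log2 fold change 0.47, SE 0.22, limma adjusted p = 0.129). *Tagln2* was at 188 ± 5.63 and 191 ± 7.80 FPKM (limma adjusted p = 0.742), and *Cald1*, caldesmon, at 34.0 ± 2.99 and 36.7 ± 2.24 FPKM (limma adjusted p = 0.296).

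Of the 4 myosin chains matched, 2 rose and 2 fell. *Myh10*, the heavy chain of nonmuscle myosin IIB, measured 41.2, 43.1 and 40.6 FPKM in controls and 60.1, 58.3 and 59.9 after silencing. It was higher in each silenced library (41.6 ± 1.29 to 59.4 ± 1.02 FPKM, log2 fold change 0.51, SE 0.039, limma adjusted p = 6.06e-05). *Myh9*, the heavy chain of nonmuscle myosin IIA, fell from 123 ± 2.55 to 109 ± 2.94 FPKM (log2 fold change −0.17, limma adjusted p = 0.00595, or −0.11 after quantile normalization). The 2 heavy chains summed to 165 ± 2.52 FPKM in controls and 169 ± 3.96 after silencing, with overlap, and the share of *Myh10* went from 25.2% ± 0.786 to 35.2% ± 0.228. *Myl6*, the essential light chain, went from 502 ± 22.8 to 432 ± 8.22 FPKM (log2 fold change −0.22, limma adjusted p = 0.00360), but was at 0.02 (limma adjusted p = 0.639) after quantile normalization. *Myl9*, a regulatory light chain whose phosphorylation drives contraction and an SRF target, measured 2.1, 1.96 and 0.941 FPKM in controls and 4.20, 3.15 and 2.95 after silencing. Its groups did not overlap, but they were widely spread (log2 fold change 1.06, SE 0.30, limma adjusted p = 0.0265). The call rests on few libraries: without *Xbp1* siRNA replicate 1 it was 0.91 (limma adjusted p = 0.0875), without *Xbp1* siRNA replicate 2 it was 1.11 (limma adjusted p = 0.0573), and without control siRNA replicate 3, the lowest library, it was 0.71. After quantile normalization it was 0.96, under the 2-fold threshold.

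Of the 4 crosslinkers, 1 rose and 3 did not pass the test. *Flna*, filamin A, which ties filaments into networks, was at 93.7 ± 1.63 FPKM in controls and 92.2 ± 3.63 after silencing. *Actn1* and *Actn4*, the nonmuscle α-actinins that bundle filaments, were at 58.5 ± 1.95 and 56.2 ± 3.16 FPKM and at 32.2 ± 1.72 and 33.2 ± 1.27 FPKM. The libraries overlapped for all 3, and the limma adjusted p lay at 0.650, 0.406 and 0.589. *Lima1* (EPLIN), which stabilizes filaments, measured 10.1, 11.5 and 11.5 FPKM in controls and 15.2, 14.1 and 14.0 after silencing, higher in each silenced library (log2 fold change 0.39, limma adjusted p = 0.00518).

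At focal adhesions, talin binds integrins, vinculin couples talin to actin, and paxillin is a scaffold for signalling. *Pxn*, paxillin, measured 22.6, 22.0 and 22.7 FPKM in controls and 13.8, 13.7 and 14.3 after silencing, 62.1% of control (log2 fold change −0.68, SE 0.049, limma adjusted p = 4.40e-05). *Vcl*, vinculin and an SRF target, measured 24.2, 24.3 and 24.4 FPKM in controls and 16.4, 16.3 and 15.5 after silencing, 66.3% of control (log2 fold change −0.59, SE 0.048, limma adjusted p = 7.81e-05). For both genes the gap between the groups was many times the spread within them. *Tln1*, talin-1, fell from 33.1 ± 1.39 to 27.8 ± 0.435 FPKM (log2 fold change −0.25, limma adjusted p = 0.00400). *Zyx*, zyxin, which marks tensed filaments, went from 58.4 ± 1.51 to 54.2 ± 2.67 FPKM and did not pass the test (limma adjusted p = 0.10).

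The ERM proteins ezrin, radixin and moesin link actin to the plasma membrane, and all 3 fell. *Ezr* measured 59.6, 60.7 and 56.6 FPKM in controls and 32.6, 31.4 and 31.2 after silencing, 53.8% of control (log2 fold change −0.89, SE 0.043, limma adjusted p = 7.94e-06). In reads, recovered from the steps of its FPKM values, these were 1405, 1344 and 1306 in controls and 786, 725 and 853 after silencing. *Msn*, moesin, fell from 62.2 ± 1.12 to 46.6 ± 0.945 FPKM (log2 fold change −0.42, limma adjusted p = 1.14e-04) and *Rdx*, radixin, from 108 ± 8.07 to 81.2 ± 4.50 FPKM (log2 fold change −0.41, limma adjusted p = 0.00187). The share of *Ezr* in the ERM sum went from 25.7% ± 1.52 to 19.9% ± 0.994 and did not overlap between groups. *Vim*, vimentin, the intermediate filament protein of mesenchymal cells, fell from 377 ± 10.7 to 304 ± 13.2 FPKM (log2 fold change −0.31, limma adjusted p = 7.38e-04, or −0.18 after quantile normalization).

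**Figure D2:**
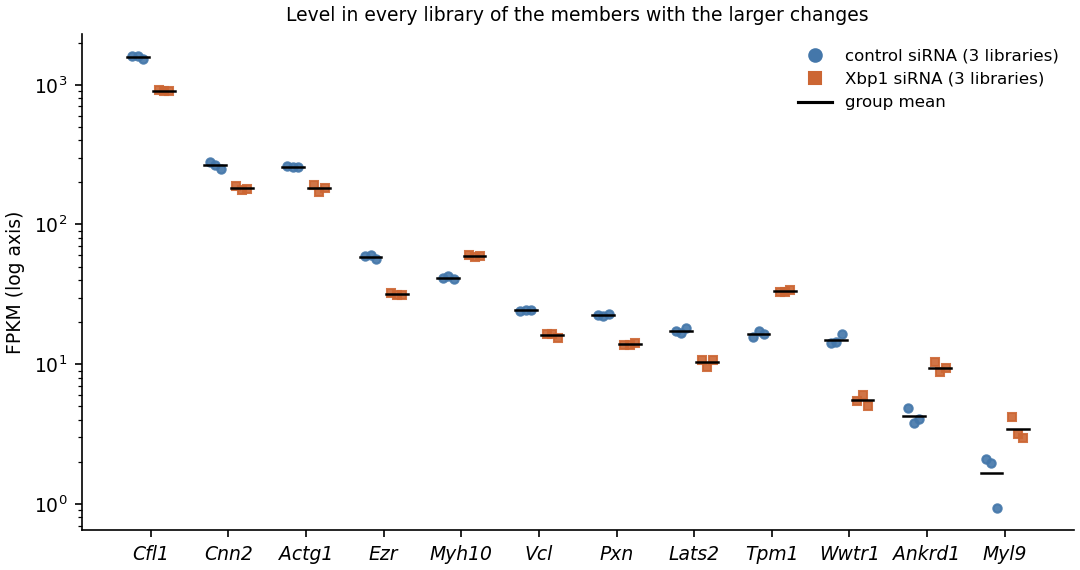
FPKM (log axis) in each library of the 12 genes that passed at an adjusted p under 0.05 with log2 fold changes of 0.5 or more in either direction. Circles are the 3 control siRNA libraries, squares the 3 *Xbp1* siRNA libraries and bars the group means, and the groups do not overlap for any of the 12. *Cfl1* falls from 1575 to 909 FPKM, and the third control library of *Myl9*, at 0.941 FPKM, is the lowest point.

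TAZ and YAP are paralogs, and their transcripts did not move together. *Wwtr1*, the gene for TAZ, measured 14.2, 14.5 and 16.4 FPKM in controls and 5.45, 6.05 and 5.05 after silencing. Its level fell to 36.8% of control (15.0 ± 1.18 to 5.52 ± 0.502 FPKM), a log2 fold change of −1.43 (SE 0.094, limma adjusted p = 3.16e-05), and ranged from −1.49 to −1.30 over all alternatives tried. *Yap1* measured 49.5, 47.4 and 51.2 FPKM in controls and 53.6, 53.3 and 53.3 after silencing. Every silenced library was above the controls, but the difference did not pass the test (log2 fold change 0.11, SE 0.041, limma adjusted p = 0.0591). It did pass after quantile normalization (0.17, limma adjusted p = 0.0154) and without control siRNA replicate 3 (0.14, limma adjusted p = 0.0424). *Wwtr1* made up 23.3% ± 0.979 of the YAP and TAZ transcript in controls and 9.36% ± 0.770 after silencing. *Tead1*, the DNA-binding partner of both, fell from 23.2 ± 1.05 to 18.7 ± 0.677 FPKM (log2 fold change −0.31, limma adjusted p = 0.00347). *Srf* fell from 33.4 ± 0.770 to 28.8 ± 0.807 FPKM (log2 fold change −0.21, limma adjusted p = 0.00674). FPKM of a transcript gives neither the amount of its protein nor where the protein is in the cell, which is how YAP, TAZ and the MRTFs are chiefly controlled.

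The 3 YAP/TAZ targets that also act back on the pathway or mark its activity went different ways. *Ankrd1*, a nuclear ankyrin repeat protein widely used as a YAP reporter, measured 4.86, 3.81 and 4.03 FPKM in controls and 10.3, 8.79 and 9.32 after silencing. That corresponds to 53, 39 and 43 reads against 115, 94 and 118, a log2 fold change of 1.15 (SE 0.12, limma adjusted p = 2.35e-04). *Lats2*, a Hippo kinase that YAP itself induces, measured 17.3, 16.6 and 18.2 FPKM in controls and 10.7, 9.61 and 10.7 after silencing (log2 fold change −0.75, SE 0.070, limma adjusted p = 1.60e-04). *Amotl2*, an angiomotin that binds YAP, was at 40.6 ± 2.30 and 38.8 ± 1.18 FPKM, with overlapping libraries (limma adjusted p = 0.377). So 1 rose, 1 fell and 1 did not pass the test.

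Shares within a family do not depend on a scale factor per library, so they were compared on their own. In 6 of 8 families with at least 2 genes matched, at least 1 share did not overlap between the groups, and in the transgelins and α-actinins the shares overlapped. The shares of a family add up to 100%, so they are not separate observations, and in a family of 2 genes one mirrors the other. No background over other families was computed. With 3 libraries against 3, an exact two-sided permutation test cannot go below p = 0.1, and the shares that did not overlap were at that limit (0.143 after Benjamini-Hochberg adjustment over the 20 shares), so none can pass a threshold of 0.05. The share of *Yap1* rose by 13.9 percentage points, that of *Myh10* by 9.97 and that of *Tpm1* by 4.01. The share of *Ezr* fell by 5.86 points, that of *Cnn2* fell by 2.62 and that of *Actg1* fell by 0.539. The share of *Cnn2* fell by 1.70 without control siRNA replicate 1, and that of *Actg1* fell by 0.359 without *Xbp1* siRNA replicate 2. Quantile normalization, which is not a single factor per library, was added after seeing the data. It gave a rise of 14.5 points for *Yap1* and of 9.93 for *Myh10*, and the share of *Actg1* fell by 1.07. The summed FPKM of the families went different ways: actins, calponins, the ERM proteins and YAP/TAZ were lower in every silenced library, whereas tropomyosins, nonmuscle myosin heavy chains, transgelins and α-actinins overlapped.

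**Figure D3:**
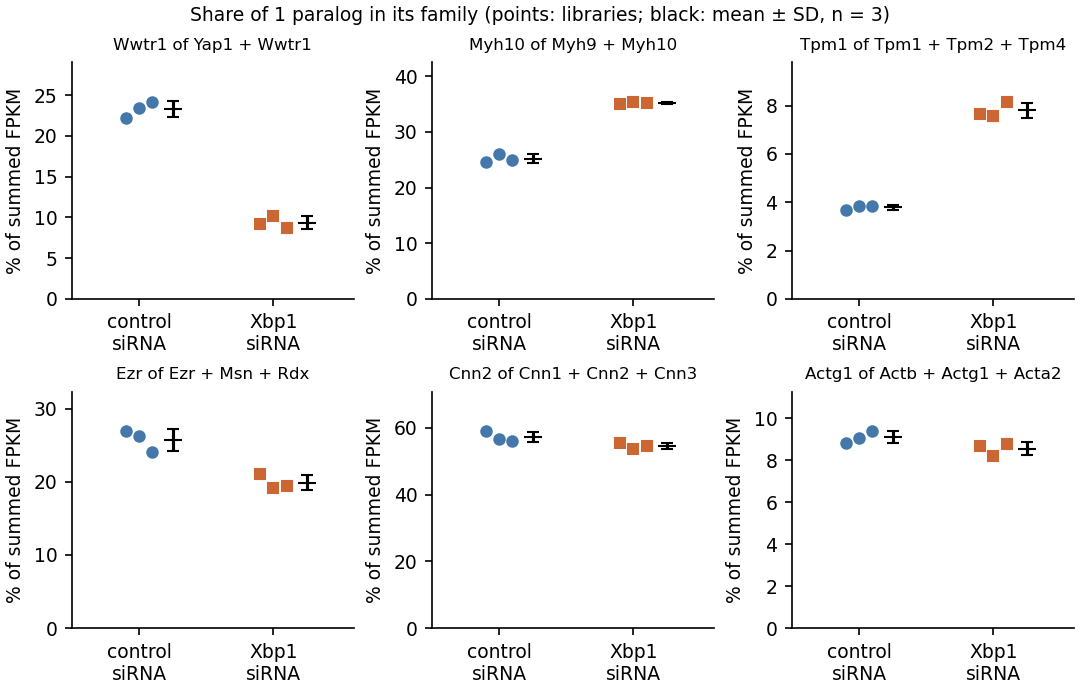
Share of 1 gene in the summed FPKM of its family (percent) in each library, for 6 families. Circles are control siRNA and squares *Xbp1* siRNA libraries, black marks are means ± SD (n = 3), and every axis starts at 0. *Wwtr1* goes from 23.3% to 9.36% and *Myh10* from 25.2% to 35.2%, while *Cnn2* goes from 57.2% to 54.6% and *Actg1* from 9.09% to 8.55%.

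Other genes of the same machinery, on 7 lists that leave the members out, passed the test in both directions. Of 40 tested genes of actin nucleation and turnover, 14 were lower (35%) and 9 were higher (22.5%), against 20.2% of all genes tested in each direction, so the higher share was near the background. The median log2 fold change was −0.07. *Arpc1b*, a subunit of the Arp2/3 complex that branches filaments, went from 819, 768 and 778 FPKM to 261, 246 and 259 (log2 fold change −1.63, limma adjusted p = 6.56e-07), the lowest of that list. *Vasp*, which promotes filament elongation, fell from 70.4 ± 2.67 to 40.7 ± 1.52 FPKM. The Arp2/3 activators *Wasf1* (2.85 ± 0.520 to 6.52 ± 0.457 FPKM) and *Wasf2* (59.1 ± 1.33 to 87.3 ± 2.37 FPKM) rose. Another 4 Arp2/3 subunits were picked after their values were seen: *Actr2* was lower (63.2 ± 3.38 to 52.9 ± 1.72 FPKM, limma adjusted p = 0.00516), *Arpc2* was higher (231 ± 5.41 to 255 ± 9.13 FPKM, limma adjusted p = 0.0179), and *Actr3* and *Arpc3* had adjusted p of 0.837 and 0.830.

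Of 27 tested crosslinker and focal adhesion genes, 7 were lower and 7 higher (25.9% each, near the 20.2% of all genes tested). *S100a10*, the partner of annexin A2, fell from 358 ± 9.12 to 178 ± 17.7 FPKM, and *Flnc*, the muscle filamin, from 3.03 ± 0.207 to 1.6 ± 0.149 FPKM. *Tln2*, the second talin, rose from 5.50 ± 0.192 to 10.1 ± 0.615 FPKM (log2 fold change 0.87, limma adjusted p = 1.41e-04), opposite to *Tln1*, and *Fscn1*, fascin, rose from 0.660 ± 0.155 to 1.70 ± 0.373 FPKM.

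Of 20 tested genes of SRF cofactors and targets, 9 were lower (45%) and 7 higher (35%), against 20.2% of all genes tested in each direction, and the median log2 fold change was −0.11. The higher genes included *Des*, whose control mean was under the filter of 0.1 FPKM. With a filter at 1 FPKM, 4 were higher. Both MRTF cofactors rose: *Mrtfb*, the gene for MRTF-B, rose from 5.12 ± 0.146 to 7.32 ± 0.485 FPKM (log2 fold change 0.51, limma adjusted p = 0.00268), and *Mrtfa*, picked after its values were seen, from 20.4 ± 0.859 to 24.1 ± 0.622 FPKM (log2 fold change 0.24, limma adjusted p = 0.00863). *Egr1*, an immediate early gene, fell from 25.5, 25.2 and 26.4 FPKM to 8.32, 8.50 and 8.0 (log2 fold change −1.62, limma adjusted p = 2.17e-06), and *Elk4*, an SRF partner of the other, ERK-driven branch, from 12.1 ± 1.46 to 5.83 ± 0.413 FPKM (log2 fold change −1.04). *Junb*, picked after its values were seen, fell from 59.0 ± 3.54 to 37.7 ± 1.28 FPKM. *Myh11*, smooth muscle myosin, rose from 0.737 ± 0.210 to 1.39 ± 0.232 FPKM (limma adjusted p = 0.0310).

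Of 22 tested Hippo pathway and TEAD genes, 7 were higher (31.8%) and 6 lower (27.3%), against 20.2% of all genes tested in each direction. Of the core kinase module, genes picked after their values were seen were higher: *Stk3* (23.0 ± 0.596 to 28.8 ± 1.73 FPKM), *Stk4* (36.5 ± 2.49 to 51.2 ± 3.73 FPKM), *Mob1a* (60.5 ± 2.59 to 73.9 ± 2.60 FPKM) and *Lats1* (13.9 ± 1.28 to 16.5 ± 1.05 FPKM) rose, with limma adjusted p of 0.00343, 0.00125, 0.00199 and 0.0427. *Sav1*, their scaffold, rose from 40.8 ± 1.71 to 59.2 ± 1.35 FPKM (log2 fold change 0.54, limma adjusted p = 8.15e-05), opposite to *Lats2*. *Ajuba*, a LIM protein that restrains LATS kinases, rose from 42.1 ± 3.8 to 66.9 ± 2.32 FPKM. *Frmd6*, an upstream Hippo component, fell from 57.4 ± 1.51 to 32.7 ± 0.476 FPKM (log2 fold change −0.81, limma adjusted p = 7.40e-06), and *Tead4* from 6.04 ± 0.393 to 4.46 ± 0.267 FPKM.

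Among 15 tested YAP and TAZ target genes, 4 were lower (26.7%), 3 higher (20%) and 8 passed in neither direction, shares near the 20.2% of all genes tested in each direction, and the median log2 fold change was 0.02. *F3*, tissue factor, measured 1.45, 2.22 and 1.93 FPKM in controls and 5.21, 4.79 and 5.11 after silencing (log2 fold change 1.40, limma adjusted p = 4.68e-04), and *Nuak2* rose from 1.52 ± 0.295 to 2.47 ± 0.409 FPKM. *Axl*, a receptor tyrosine kinase, fell from 153 ± 2.76 to 97.3 ± 1.67 FPKM (log2 fold change −0.65, limma adjusted p = 7.96e-06), and *Ccdc80* from 31.9 ± 1.98 to 22.1 ± 0.281 FPKM. The third gene that rose, *Ccn1*, was picked after its values were seen (11.6 ± 1.58 to 15.5 ± 0.335 FPKM, limma adjusted p = 0.010).

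**Figure D4:**
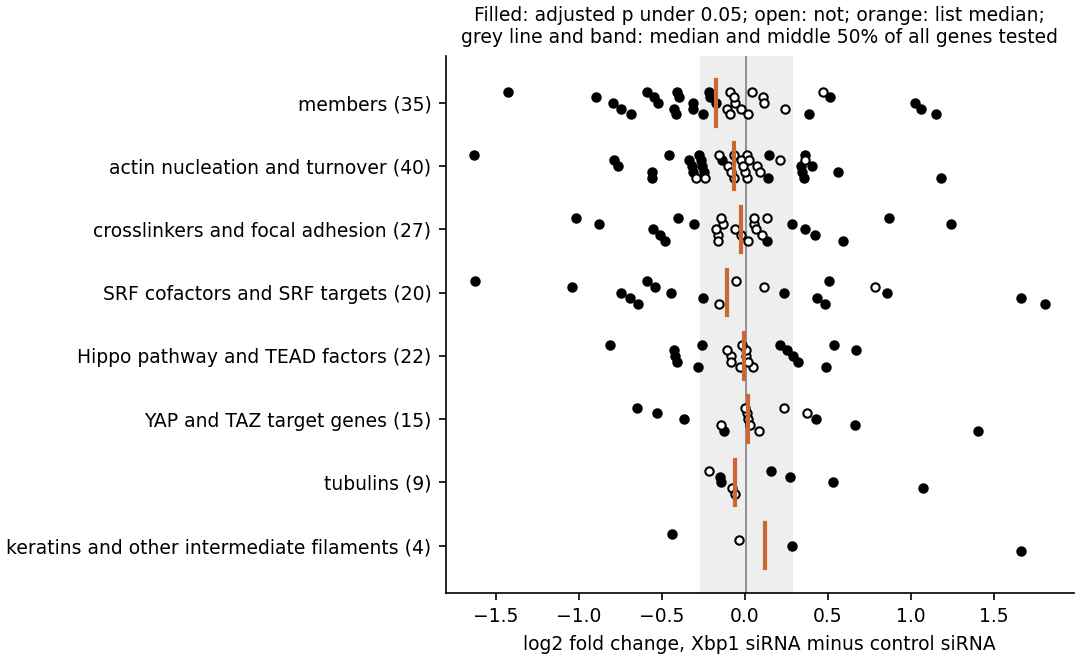
Log2 fold change (*Xbp1* siRNA minus control siRNA) of each tested gene of the members and of the 7 lists, with the number of genes in brackets. Filled points have an adjusted p under 0.05 (limma), orange bars are list medians, and the grey line and band are the median and the middle 50% of all 14361 genes. The median of the members, −0.17, is the lowest of the 8, and the medians of the lists lie between −0.11 and 0.12.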

How the data were processed

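The authors deposited 1 table of FPKM per library. The submitters' processing notes name HISAT2 2.1.0 and Cuffdiff 2.2.1, and the libraries were TruSeq stranded mRNA libraries per the labels. The genome build and annotation are not given in the sources used here, so no coordinates or sequences are printed. The DESeq2 test of the study needs counts and could not be run here. The tests used limma 3.58.1 in R 4.3.3 (lmFit, then eBayes with an intensity trend) on log2(FPKM + 0.1), over genes whose mean FPKM reached 0.1. This scale understates changes of weakly expressed genes. Benjamini-Hochberg adjustment ran over 14361 genes, and the thresholds were those of the study. The procedure was tested on simulated data. Where the FPKM of a member fell within 0.02 of whole numbers of reads in all 6 libraries, as for 12 members, values were also expressed in reads, which cover counting error only.

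The members and lists were chosen with earlier results of these data known. Full statistics are given for members past an adjusted p of 0.05 whose log2 fold change was 0.5 or more in either direction, and of each list up to 2 genes in each direction were named by the largest change among those with an adjusted p under 0.05 and a mean of at least 1 FPKM. Other genes are marked as picked after their values were seen. Of the planned gene lists, 1 is not reported here. As alternatives, the pseudocount was set to 1 and to 0.01, the filter to 1 FPKM or none, and the scaling to median-ratio or quantile normalization, besides no intensity trend, a fold threshold of 1.5, the replicate block, the logit of shares, and leaving out each library. Quantile normalization of shares was added after seeing the data. The rest ran in Python 3.11.15 (scipy 1.17.1, pandas 2.3.3, numpy 2.4.6).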

Additional observations from a re-analysis of the deposited data

How the results depend on the processing

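Of 490 values for single members under the alternatives, 475 kept their direction and their side of an adjusted p of 0.05, whatever their fold. Of the others, 3 no longer passed, 4 newly passed and 8 changed sign. None of these 8 passed the test after the change, and among them *Myl6*, under quantile normalization, had passed before. With a pseudocount of 1, 1 member was called higher (*Ankrd1*), since *Tpm1* and *Myl9* fell under 2-fold, and 0.794% of all genes were called higher, against 2.69% in the main setting. With a fold threshold of 1.5, 6 members were called lower, *Cfl1*, *Ezr*, *Lats2*, *Pxn* and *Vcl* in addition to *Wwtr1*, against 6.73% of all genes tested. The median of the members was −0.11 with no filter, where the 2 weakest members enter, and −0.052 after quantile normalization, where *Myl6* turned to 0.018, *Actn1* to 0.0013, *Tpm4* to 0.047, *Flna* to 0.049 and *Pfn1* to 0.071. With 1 library left out, *Actn4* ranged from −0.0034 to 0.066 and *Tagln2* from −0.014 to 0.040. *Tpm1* stood at 0.99, under the fold threshold, without control siRNA replicate 1. *Myl9* was also no longer called with no intensity trend (limma adjusted p = 0.0598) or after quantile normalization (0.96), *Tagln2* passed after quantile normalization (0.15, limma adjusted p = 0.0231), and *Zyx* passed without *Xbp1* siRNA replicate 1 (−0.15, limma adjusted p = 0.0368). Of 196 counts of list genes higher or lower, 185 stayed within 1.5 times the main count. The other 11 were counts of the SRF, tubulin and intermediate filament lists. All 156 values for shares, quantile normalization included, kept their direction.

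Deviations of same-numbered libraries had correlations of −0.029, −0.027 and −0.012 over 14361 genes, so no pairing by replicate number was detected. Such values cannot show whether those libraries were prepared together. With the replicate number as a block, 3 members were called higher and 1 lower (2.53% and 2.46% of all genes), 5 were higher and 18 lower at an adjusted p under 0.05 (19.3% and 20% of all genes), and the median was −0.17. Reads were recovered for 12 members, and for the others precision is known only through the spread of 3 libraries.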

Other observations

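Of 9 tested tubulins, 4 were higher (44.4%) and 2 lower (22.2%), against 20.2% of all genes tested in each direction (median log2 fold change −0.06). *Tuba1a*, an α-tubulin typical of neurons and growing cells, measured 5.80, 6.25 and 5.89 FPKM in controls and 12.4, 12.1 and 13.5 after silencing (log2 fold change 1.07, limma adjusted p = 3.90e-05). *Tuba1b* rose from 70.0 ± 1.80 to 101 ± 1.05 FPKM (log2 fold change 0.53, limma adjusted p = 2.70e-05). *Tubb4b*, a β-tubulin, fell from 127 ± 2.78 to 115 ± 1.96 FPKM (limma adjusted p = 0.00943), and *Tubg1*, γ-tubulin of the microtubule-organizing centre, from 30.9 ± 0.891 to 27.8 ± 0.589 FPKM (limma adjusted p = 0.0282). No tubulin was lower after quantile normalization, and 1 was lower with no intensity trend, without control siRNA replicate 1 or 2, or without *Xbp1* siRNA replicate 2 or 3. Reads shared among near-identical tubulin genes were not examined.

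Of 4 tested keratins and other intermediate filaments, 2 were higher and 1 lower, too few to set against the 20.2% of all genes tested, and the count of higher genes was 1 with a filter at 1 FPKM, without control siRNA replicate 3, or without *Xbp1* siRNA replicate 1 or 3. The higher genes were *Lmnb2* and *Des*, both described below. Nuclear lamins went opposite ways. *Lmna*, the gene for lamins A and C, whose level follows the stiffness of tissue, fell from 86.4 ± 4.21 to 63.8 ± 6.12 FPKM (log2 fold change −0.44, limma adjusted p = 0.00255), and *Lmnb2*, lamin B2, rose from 21.7 ± 0.868 to 26.4 ± 1.08 FPKM (log2 fold change 0.28, limma adjusted p = 0.00472). *Actc1*, cardiac α-actin, and *Des*, desmin, both picked after their values were seen, were higher: *Actc1* measured 0.248, 0.176 and 0.421 FPKM in controls and 1.69, 1.51 and 0.639 after silencing (limma adjusted p = 0.0110), and *Des* went from 0.0535 ± 0.0524 to 0.382 ± 0.158 FPKM. The control mean of *Des* lay under the filter of 0.1 FPKM. It entered the test only through the silenced libraries, so no p-value is given for it. *Smtn*, smoothelin, also picked after its values were seen and the highest of the smooth muscle markers, fell from 9.36 ± 0.417 to 6.21 ± 0.550 FPKM (limma adjusted p = 0.00171).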
